A study of Homo sapiens with 9 samples.

Results

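The transcription factor genes BCL11B, GATA3, TCF7, LEF1, TOX, IKZF1, ZBTB7B, SATB1 and BCL11A were followed here because the first 8 are known as factors that set or keep T-cell identity and BCL11A is the close relative of BCL11B. They are 9 of the 20037 protein-coding genes that RefSeq places on chromosomes 1 to 22, X and Y of GRCh38. For each gene, the gene body and 100 kb to each side were searched for called ChIP-seq peaks, and for BCL11B, which has a known distal enhancer, 1 Mb to each side.

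The cells were RPMI-8402, an established human line of T-cell acute lymphoblastic leukaemia, in which ChIP-seq was run on 9 samples to map the binding of NKX2-1, a transcription factor of the homeodomain family that is also named TTF1. An NKX2-1 antibody (ab76013) was used on 4 clones called knockout (KO) in the series design text, C12, C15, S04 and S36, and on 4 wild-type (WT) clones, WT10, WT13, WT28 and WT30. The genotype field of the KO clones reads only NKX2-1, and each clone gave 1 library, so p-values measure the spread between these libraries, which may be technical. The ninth sample is a single H3K27ac library with no clone named, whose genotype field also reads NKX2-1; it has no replicate.

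T-cell progenitors that enter the thymus receive Notch signals, which switch on TCF7 and GATA3; BCL11B then marks commitment to the T lineage and closes other fates. LEF1, TOX, SATB1, IKZF1 and ZBTB7B act at later or overlapping steps, and in T-cell leukaemia several of these genes are deleted, silenced or used as donors of enhancers. H3K27ac, acetylation of lysine 27 of histone H3, lies at active promoters and enhancers, and a homeodomain factor such as NKX2-1 may bind either.

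The deposited files are lists of called peaks, with no read counts, so the depth behind each peak is unknown, and a place without a peak is a place where none was called at that depth. The H3K27ac list held 9857 peaks with a median width of 391 bp. The antibody lists held 810, 817, 842 and 934 peaks in the KO clones C12, C15, S04 and S36, and 1144, 742, 875 and 771 peaks in the WT clones WT10, WT13, WT28 and WT30. Libraries S36 and WT10 stood apart from the others of their groups. The share of antibody peaks overlapping an H3K27ac peak was 1.23%, 0.612%, 0.119% and 4.71% in C12, C15, S04 and S36, and 6.47%, 0.27%, 2.63% and 2.33% in WT10, WT13, WT28 and WT30. Markers of cell type, read as H3K27ac peaks in the gene or within 10 kb, were found at 7 of 11 T-lineage genes (CD3D, CD3E, CD3G, CD247, CD5, PTCRA and LCK, but not CD7, CD2, RAG1 or RAG2), at 1 of 6 B-lineage genes (CD79A) and at 3 of 7 myeloid genes (SPI1, MPO and LYZ), against 29% of all genes. CD3D and CD3G each had 4 peaks with the same highest fold, 8.08, so the same peaks may be counted for both.

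H3K27ac peaks lay in the gene or within 100 kb, the window used here for all 9 genes, BCL11B included, in 8 of the 9, SATB1 being the exception, where 56.8% of all protein-coding genes had at least 1. These 9 windows of 100 kb to each side held 62 peaks in all. The median gene of the 9 had 5 peaks covering 2658 bp, and the median protein-coding gene had 1 peak covering 309 bp. The spread among the 9 was wide. TCF7 had 18 peaks, LEF1 17, ZBTB7B 11, BCL11B and TOX 5 each, IKZF1 4, GATA3 and BCL11A 1 each, and SATB1 none. At a −log10 q of 5 or more, GATA3 and BCL11A had 0 and the other genes with peaks kept some. The share of all genes with a peak at that threshold is not given here. Set against window length, TCF7 had 7.5 peaks per 100 kb, LEF1 5.29, ZBTB7B 5.07, BCL11B 1.65, IKZF1 1.33, TOX 0.973, GATA3 0.435 and BCL11A 0.33, with a median of 0.399 over all genes. All of these are values of 1 library and carry no test.

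**Figure D1:**
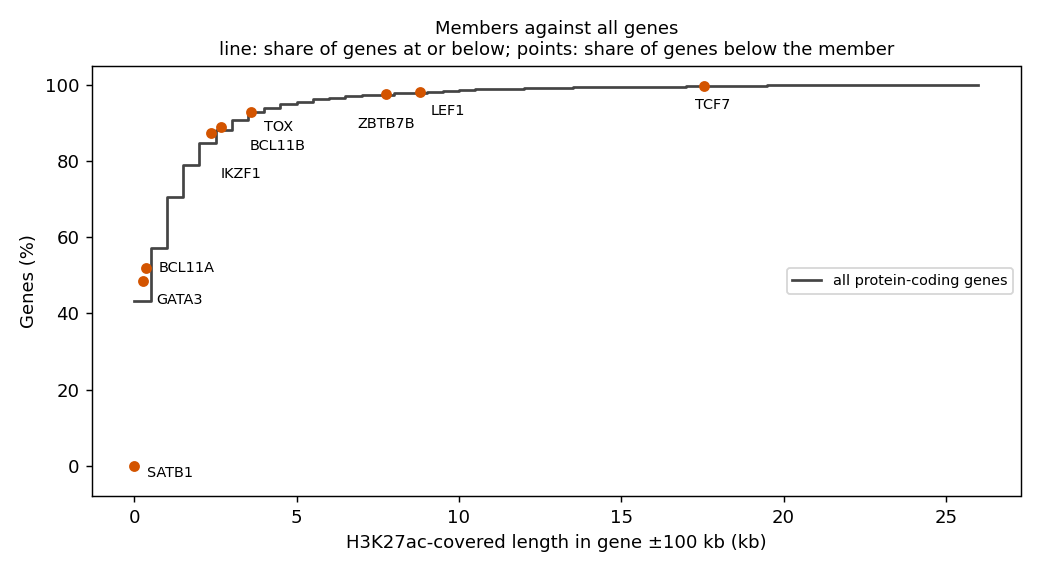
Length covered by H3K27ac peaks in the gene and 100 kb to each side (x axis, kb) against the share of protein-coding genes (y axis, percent); the line is the distribution of all 20037 genes and each point is 1 of the 9 genes, placed at the share of genes below it. TCF7 at 17.6 kb, LEF1 at 8.81 kb and ZBTB7B at 7.76 kb lie at the top of the distribution, while GATA3 and BCL11A lie near its middle and SATB1 at 0.

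At the gene starts the picture was sparser. RefSeq promoter entries were matched for 8 of the 9 genes, with 24 start sites between them. An H3K27ac peak covered a start in 2 of these 8 genes, TCF7 and IKZF1, against 6.69% of the 15843 genes with entries. Within 1 kb of a start there was a peak in 6 of the 8 genes (BCL11B, GATA3, TCF7, LEF1, IKZF1 and BCL11A), against 20.8% of those genes. ZBTB7B and SATB1 had none that near. The single peaks at GATA3 and BCL11A were weak, with a −log10 q of 4.92 and 2.46. A gene counted here if any of its starts did, so genes with several starts had more occasions to count. By start, 7 of the 24 lay within 1 kb of a peak and 3 were covered by one. The share over all RefSeq starts is not given here. The 250 bases before a start are shown for 5 genes that span this range, from RefSeq (GRCh38.p14), 5′ to 3′ on the strand of the gene. TCF7 (chr5:134115363-134115612, plus strand) lay wholly inside a 9740 bp peak, part of the LEF1 window (chr4:108166302-108166551, minus strand) was covered by a peak of 7.9-fold enrichment, and in IKZF1 (chr7:50308450-50308699, plus strand) a peak began at 50308694, just before the start. BCL11B (chr14:99272198-99272447, minus strand) had its nearest peak 920 bp inside the gene, and SATB1 (chr3:18445593-18445842, minus strand) had no peak in its whole window. Capitals mark matches on either strand to the motif letters listed after the sequences.
TCF7: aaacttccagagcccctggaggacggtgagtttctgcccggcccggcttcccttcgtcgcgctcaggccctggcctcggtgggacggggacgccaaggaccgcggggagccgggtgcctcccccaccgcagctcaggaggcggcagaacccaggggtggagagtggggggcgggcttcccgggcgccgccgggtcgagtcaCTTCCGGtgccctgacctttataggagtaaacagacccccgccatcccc
LEF1: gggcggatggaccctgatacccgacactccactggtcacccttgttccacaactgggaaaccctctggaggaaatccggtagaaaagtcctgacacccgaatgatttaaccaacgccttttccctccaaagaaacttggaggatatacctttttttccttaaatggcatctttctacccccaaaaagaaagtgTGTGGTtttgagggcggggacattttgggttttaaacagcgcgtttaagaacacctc
IKZF1: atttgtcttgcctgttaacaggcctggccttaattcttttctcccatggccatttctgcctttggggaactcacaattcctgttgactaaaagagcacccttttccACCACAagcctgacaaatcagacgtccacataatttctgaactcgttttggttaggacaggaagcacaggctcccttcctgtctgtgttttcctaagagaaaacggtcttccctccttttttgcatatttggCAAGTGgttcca
BCL11B: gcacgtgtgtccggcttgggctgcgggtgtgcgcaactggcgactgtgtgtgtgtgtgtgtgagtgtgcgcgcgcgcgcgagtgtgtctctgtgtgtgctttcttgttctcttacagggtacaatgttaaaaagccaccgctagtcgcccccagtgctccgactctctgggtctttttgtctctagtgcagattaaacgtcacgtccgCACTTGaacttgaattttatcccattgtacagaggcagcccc
SATB1: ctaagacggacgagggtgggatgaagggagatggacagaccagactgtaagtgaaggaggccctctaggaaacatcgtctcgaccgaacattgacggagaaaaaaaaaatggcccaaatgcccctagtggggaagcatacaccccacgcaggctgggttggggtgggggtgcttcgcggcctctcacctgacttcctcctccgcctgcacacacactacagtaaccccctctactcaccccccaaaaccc

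The motif letters searched in all 24 promoters, on both strands, were CAAGTG for the core of an NKX2-1 site, TGTGGT for RUNX factors, CTTTGA for TCF/LEF, AGATAA for GATA and CCGGAAG for ETS factors. CAAGTG was present in 2 of the 24 promoters, those of IKZF1 and BCL11B shown, and in 9.5% of 35116 RefSeq promoters of the same length. TGTGGT was present in 5 of the 24 and in 11% of all, CTTTGA in 1 and 11.2%, AGATAA in 1 and 9.17%, and CCGGAAG in 2 and 8.52%. The ETS match stands in the TCF7 sequence and RUNX matches in those of LEF1 and IKZF1. SATB1 had none of the 5 motifs in this window. A match of this kind is a stretch of letters, not a measured site, and no antibody peak of any library overlapped these promoters.

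TCF7 encodes TCF1, an HMG-box factor that Notch signalling induces in the earliest thymic progenitors, and it had the densest acetylation of the 9 genes. Its window on chromosome 5 (gene body 134108218 to 134148210, plus strand) had more H3K27ac-covered length, 17.6 kb, than 99.6% of protein-coding genes. A peak from 134114923 to 134124662 was the second widest of the whole list, with a rank of 2 of 9857, and both RefSeq starts of TCF7, at 134115613 and 134123618, lay inside it. Its fold enrichment, the ratio at the summit that the authors' peak caller gave over its background, was 13.5. A second peak just before it, from 134112890 to 134114747, had a fold enrichment of 15.7 and a −log10 q of 24.1, rank 108 of 9857 by fold. The median over the 18 peaks of the window was 5.53-fold.

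The other TCF7 peaks formed a string on the upstream side. Of the 18 peaks, 5 lay in the gene, 11 upstream and 2 downstream. Joining nearby peaks, over gaps of the size usual in super-enhancer calling and between the 5 kb and 20 kb tried as alternatives, gave a domain of 46.1 kb, from 134093308 to 134139376, with 12 peaks covering 14.3 kb, rank 7 of 5140 domains by covered length and rank 32 by number of peaks. All 11 upstream peaks lie in the annotated body of VDAC1, a mitochondrial channel gene, and 14 of the 18 overlap some protein-coding gene other than TCF7. The 15.7-fold peak inside TCF7 also overlaps VDAC1. Peaks near starts of SKP1 (7.36-fold) and PPP2CA (9.61-fold) made up the downstream side. The 3 genes whose number of peaks, covered length and highest fold were most like those of TCF7 in this 1 library were H4C8 (18 peaks, 18.4 kb, 16-fold), H2BC10 (19 peaks, 18.5 kb, 16-fold) and H1-5 (19 peaks, 18.8 kb, 16-fold), all histone genes.

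LEF1, the HMG-box partner of TCF1 that also binds beta-catenin, had 17 peaks, 12 of them inside the gene (chromosome 4, 108047548 to 108168932, minus strand). Its acetylation differed from that of TCF7 in form, with narrow peaks of at most 1581 bp and no fold above 8.97. Inside or across the ends of the gene the peaks fell into 3 groups. At the 3′ end, 4 peaks between 108048756 and 108054295 reached 8.87-fold. In the middle, 4 peaks between 108093312 and 108095628 reached 6.43-fold. Around the 5′ end, 6 peaks between 108165560 and 108173222 reached 8.87-fold, in part overlapping the antisense transcript LEF1-AS1. The RefSeq start of LEF1 at 108166301 was in no peak, but lay 82 bp from a peak on one side and 145 bp from a peak on the other. The highest peak of the window, 8.97-fold at 108035304 to 108036033, was 11.5 kb beyond the 3′ end of LEF1, next to the metabolic gene HADH.

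TOX, an HMG-box nuclear factor needed for CD4 T-cell development, had 5 peaks over a gene of 313736 bp on chromosome 8 (58805412 to 59119147). The peak at 59117210 to 59119066 was 1857 bp wide with a fold of 13.8, rank 195 of 9857. Next to it a peak at 59119352 to 59119913 in the divergent transcript TOX-DT had a fold of 10.1. These stand at the higher-coordinate end of the gene. The other 3 peaks of TOX were far from it, a pair inside the gene at up to 6.68-fold and 1 at 5.7-fold 4.26 kb beyond the lower-coordinate end.

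IKZF1 encodes IKAROS, a zinc-finger regulator of lymphoid chromatin that is often deleted in lymphoblastic leukaemia. It had 4 peaks, 3 of them in the gene (chromosome 7, 50303455 to 50405101, plus strand). The highest, 9.36-fold at 50308694 to 50309446, covered the start at 50308700. Peaks of 6.43-fold at 50315067 to 50315455 and 6.68-fold at 50359496 to 50360443 followed inside the gene. The remaining one, 5.21-fold, lay in DDC, 91.3 kb beyond the 3′ end.

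ZBTB7B, which encodes ThPOK, the factor that directs thymocytes to the CD4 helper lineage, had 11 peaks in its window but none in the gene (chromosome 1, 155001750 to 155018523, plus strand). All 11 lay between 38.9 kb and 64.5 kb upstream, where PMVK, PBXIP1, PYGO2 and SHC1 are annotated, and 10 of them overlapped a gene other than ZBTB7B. The widest, at 154952657 to 154955282, spanned 2626 bp with a fold of 10.8. None of the 11 had a ZBTB7B start as its nearest start. The window holds 13 other protein-coding genes, so the rank of ZBTB7B, above 97.6% of genes in covered length, rests on peaks that cannot be assigned to it from these data.

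GATA3, the zinc-finger factor required from the first thymic stages through the T helper 2 fate, had 1 peak in its window (chromosome 10, gene body 8045333 to 8075198, plus strand). It was 272 bp wide with a fold of 5.7, at 8055683 to 8055954, 995 bp from the nearest of 6 RefSeq starts. BCL11A, known for its roles in B-cell progenitors and in silencing fetal globin, likewise had 1 peak, 354 bp wide with a fold of 4.72, at 60549729 to 60550082 on chromosome 2, 825 bp from the nearest of 5 starts. SATB1, a chromatin organiser abundant in thymocytes, had none in or within 100 kb of its gene body on chromosome 3 (18345377 to 18445592). The nearest H3K27ac peak to any SATB1 start was 438189 bp away. GATA3 had more covered length than 48.4% of protein-coding genes and BCL11A than 51.9%, so both stood near the middle of all genes by this measure.

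**Figure D2:**
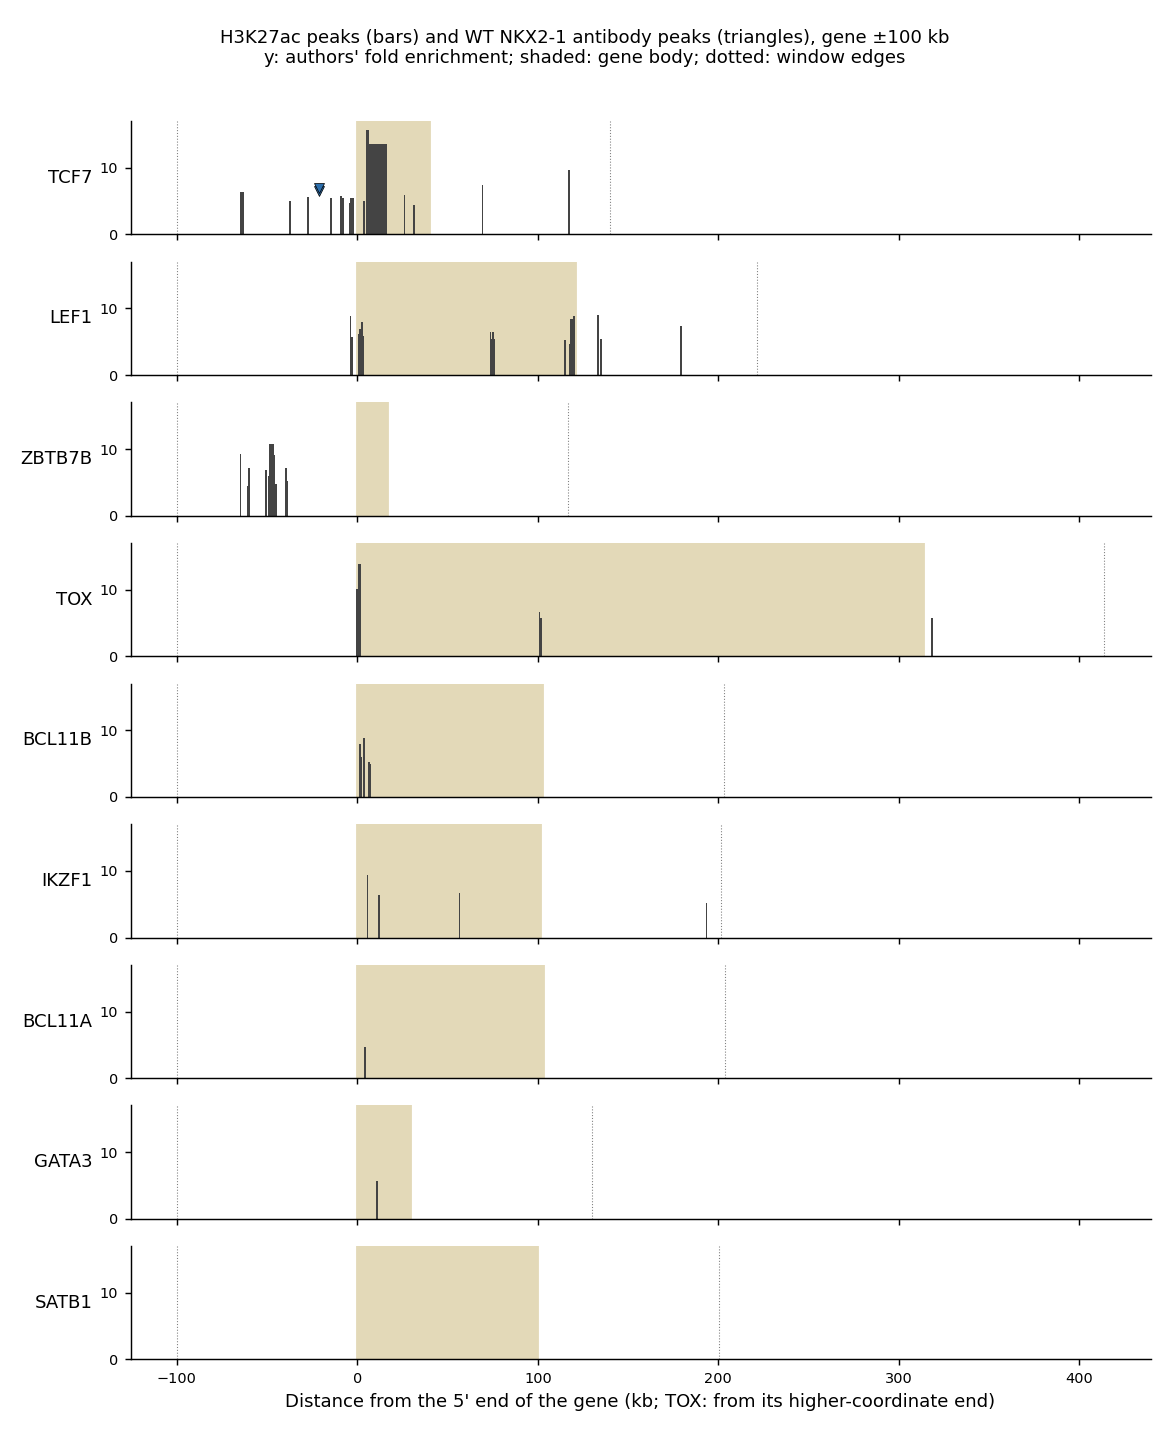
H3K27ac peaks (grey bars, height is the authors' fold enrichment, width is the peak, narrow ones widened to be visible) and WT NKX2-1 antibody peaks (blue triangles) in the gene and 100 kb to each side for each of the 9 genes, BCL11B included; the x axis is the distance in kb from the 5′ end of the gene, or for TOX from its higher-coordinate end, shading is the gene body and dotted lines are the window edges. No KO library had a peak in any of these 100 kb windows, TCF7 holds the widest block of acetylation and the only antibody site within 100 kb, and the ZBTB7B peaks all stand outside the gene.

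BCL11B, the zinc-finger gene whose product seals T-cell commitment, is a target of deletion in T-cell leukaemia. It had 5 peaks in the gene, as many as TCF7, and more towards the ends of its 1 Mb window. Within 1 Mb of the gene body (chromosome 14, 99169287 to 99272197, minus strand) there were 37 H3K27ac peaks, and 93.2% of genes had fewer in a window of that kind, where the median was 9. Only 5 of the 37 were in the gene, 21 were downstream and 11 upstream. The 5 peaks in the gene stood within 6.17 kb at its 5′ end, between 99265106 and 99271277, with folds between 4.97 and 8.87. No peak was called between these and the downstream group, a distance of 1054 kb.

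The 21 downstream peaks formed 1 domain of 44 kb, from 98166965 to 98210977, at the far side of a stretch without protein-coding genes. The nearest edge was 958 kb from BCL11B, and 0 protein-coding genes were annotated between. Their folds ran between 4.72 and 10.3 with a median of 6.19, their widths between 200 and 2569 bp, and 6 of them reached 8-fold. The 21 peaks covered 17.4 kb, rank 6 of 5140 domains by covered length and rank 5 by number of peaks. At the 5′ end of the gene itself the 5 peaks covered 2.66 kb, rank 391. Of the 21 peaks, 4 overlapped the long non-coding RNA LOC107987207. The domain sits at the edge of the window, and 161 bp of its outermost peak lay inside; the next peak beyond was 29.4 kb further. In human T-cell leukaemia the region downstream of BCL11B is known as a site of translocations that bring genes such as TLX3 under the control of BCL11B elements, and in mouse a non-coding locus far downstream is needed for Bcl11b activation. These peak lists do not show which gene the domain acts on.

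On the upstream side, 8 of the 11 peaks lay in EVL, an actin regulator gene, between 100065524 and 100079928, 793 kb from BCL11B and at up to 8.63-fold. The other 3 lay in YY1-DT, next to YY1, 942 to 966 kb away.

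**Figure D3:**
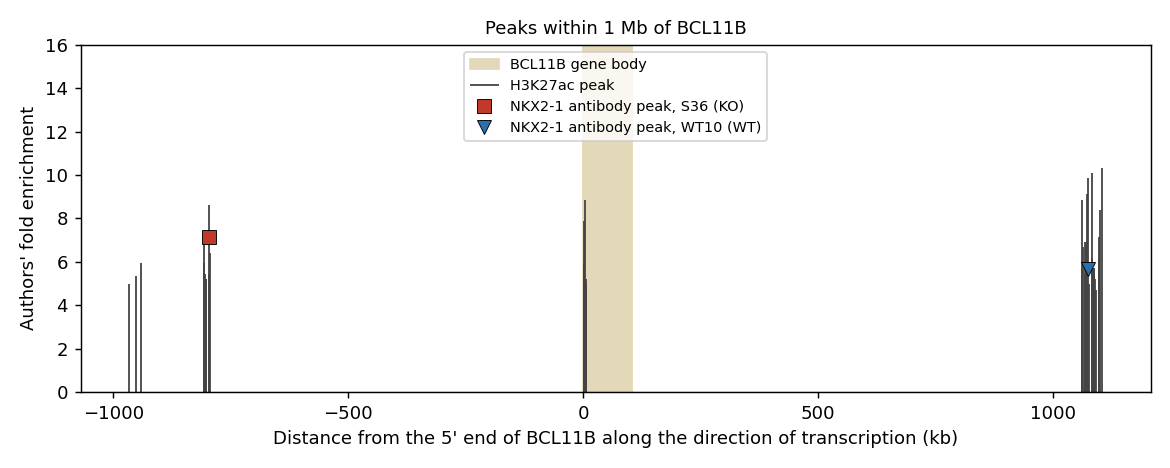
Peaks within 1 Mb of BCL11B; the x axis is the distance in kb from the 5′ end of the gene along the direction of transcription, the y axis the authors' fold enrichment, grey lines are H3K27ac peaks, the red square is the NKX2-1 antibody peak of the KO clone S36, the blue triangle that of the WT clone WT10, and shading is the gene body. The 21 downstream peaks stand about as far from the gene as the window reaches, and both antibody peaks lie among distal H3K27ac peaks.

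NKX2-1 antibody peaks were few across all genes and at these. Within 100 kb, 0 of the 9 genes had a peak in any KO library and 1 of 9, TCF7, in any WT library, against 5.57% of all protein-coding genes in KO and 5.48% in WT libraries. The authors' combined list had a peak in the window of 1 of the 9 genes, again TCF7, against 2.71% of all genes, and their WT-only list a region at 1 of 9, against 3.85%. The authors made these lists across the antibody libraries, so a site in them is not independent of the library calls. The WT-only region at TCF7 has the same start and end as the WT10 peak there. A count of 1 among 9 genes carries no test here.

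Upstream of TCF7 the site was called in none of the KO clones and in 2 of the WT clones. The number of peaks in the window was 0, 0, 0 and 0 in C12, C15, S04 and S36, and 1, 0, 1 and 0 in WT10, WT13, WT28 and WT30. The groups overlapped, because WT13 and WT30 had no peak either. The KO mean was 0 and the WT mean 0.5 ± 0.577 (SD, n = 4 each), a difference of −0.5, with p = 0.429 in a two-sided exact permutation test over the 70 assignments of the 8 libraries and an adjusted p of 1 (Benjamini-Hochberg over the 1807 genes with any peak). Of those 1807 genes 0% passed an adjusted p of 0.05 and 32 had an unadjusted p under 0.05; the smallest p this design allows is 0.0286, so the test had little room to call any gene. Without WT10 or without WT28, 1 of 3 WT libraries had the site. In WT10 the peak ran from 134086854 to 134087376 (523 bp, 6.58-fold, −log10 q 10.2) and in WT28 from 134086896 to 134087258 (363 bp, 6.96-fold, −log10 q 9.99). The combined list gives it as 134086859 to 134087208 with a fold of 4.39, rank 91 of 209. These are middling values, above 60.7% of the peaks of WT10 by fold and 63.8% of those of WT28.

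The TCF7 site lay between H3K27ac peaks. It lies inside the annotated body of VDAC1, 20.8 kb upstream of the TCF7 gene body and 28237 bp from its nearest start, while the VDAC1 start is 15.8 kb away. No H3K27ac peak overlapped it, and the nearest were 6.14 kb to one side and 5.93 kb to the other. The second was the outermost peak of the 46.1 kb TCF7 domain. With peaks joined at 20 kb, the TCF7 domain ran from 134070462 to 134139376 and took in the site, so its place outside the domain depends on the joining distance. In the libraries that did not call the site, the next antibody peak was 836 kb or more away, at a region that all 8 libraries called.

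**Figure D4:**
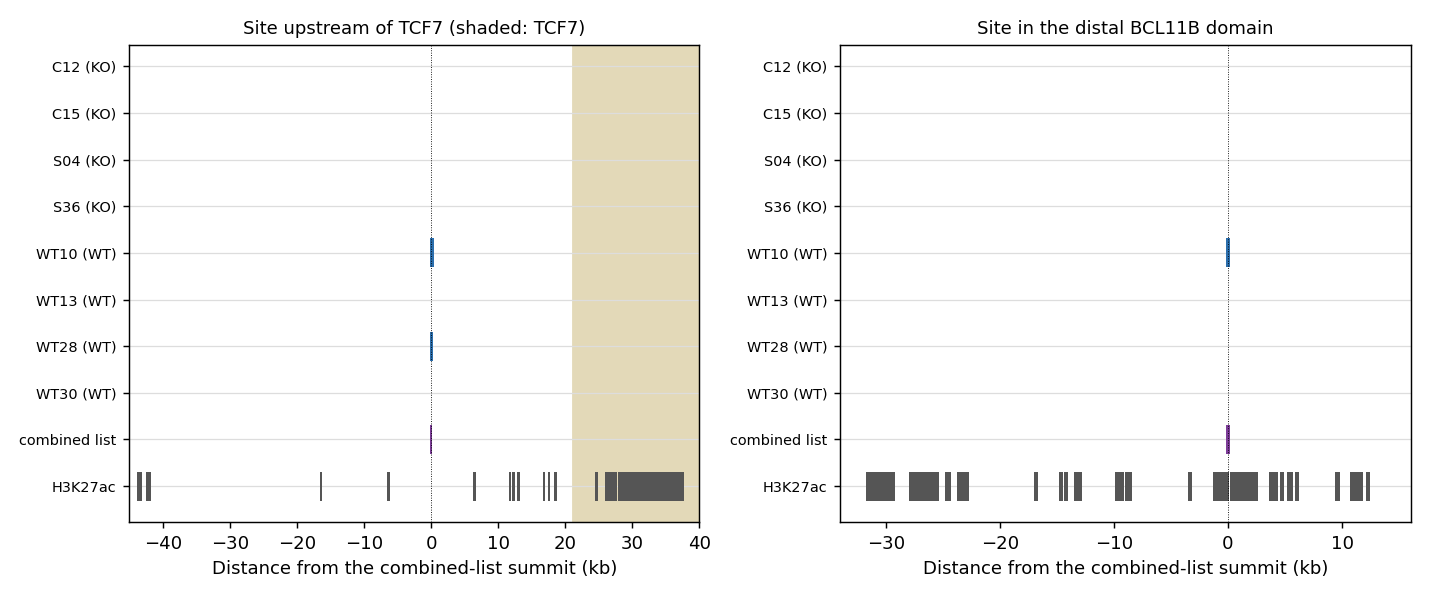
Called peaks around the antibody site upstream of TCF7 (left) and the one in the distal BCL11B domain (right), 1 row per library, KO clones above WT clones, then the authors' combined list and the H3K27ac library; the x axis is the distance in kb from the combined-list summit, bars are peaks (narrow ones widened to be visible), and shading is the TCF7 gene body. The TCF7 site is called in WT10 and WT28 between H3K27ac peaks, and the BCL11B site in WT10 alone on top of one.

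At BCL11B the antibody peaks were distal and each was called in 1 library. Within 1 Mb there were 0, 0, 0 and 1 peaks in C12, C15, S04 and S36, and 1, 0, 0 and 0 in WT10, WT13, WT28 and WT30. The difference of means was 0, with p = 1 in the two-sided exact permutation test and an adjusted p of 1 over the 9481 genes with a peak in windows of that size, of which none passed after adjustment and 190 had an unadjusted p under 0.05. The 2 peaks are different sites on opposite sides of the gene. With the 1 Mb window for BCL11B, the count of the 9 genes with a peak came to 1 in KO and 2 in WT libraries, and to 2 for the combined list and 2 for the WT-only list. Over all genes, windows of 1 Mb held a peak at 32.4% in KO and 33.6% in WT libraries. For the combined list this was 19.1% and for the WT-only list 26.2%, so a gain of 1 gene with the wider window says little about BCL11B.

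The WT10 peak, at 98198466 to 98198772 (307 bp, 5.65-fold, −log10 q 8.5), lies in the distal domain, 971 kb from BCL11B. It overlapped by 299 bp an H3K27ac peak at 98197365 to 98198764, which at 9.85-fold is one of the 6 in the domain at or above 8-fold. The antibody summit was 102 bp from the end of that H3K27ac peak, close to a gap of 86 bp before the next one, at 98198851 to 98201305 (9.12-fold). The combined list also holds the site, as 98198494 to 98198772 with a fold of 4.59, rank 80 of 209. The WT-only list holds it with the same start and end as the WT10 peak. These lists were made across the same libraries and give the site no separate support. No other library called it; the nearest peaks were 963 kb away in S36 and 4325 to 65713 kb away in the other 6. Without WT10, 0 of 3 WT libraries had a peak there. WT10 had the longest antibody list and the highest share of peaks on H3K27ac of the 8 libraries, and the part this plays at the site was not tested.

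The S36 peak, at 100068667 to 100068880 (214 bp, 7.16-fold, −log10 q 8.95), fell wholly inside an H3K27ac peak of 8.63-fold in EVL, 796 kb on the upstream side of BCL11B. It was in neither the combined nor the WT-only list, and without S36 no KO library had a peak within 1 Mb. S36 was also the KO library with the longest list and the highest share of peaks on H3K27ac, and the part of this too was not tested.

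Windows of 1 Mb were also read for every gene. In these, a peak in some KO library was found at BCL11B, GATA3, TCF7, LEF1 and ZBTB7B, where 32.4% of all genes had one, and in some WT library at BCL11B, TCF7, LEF1 and ZBTB7B, where 33.6% did. The combined list and the WT-only list each held a site within 1 Mb of BCL11B, TCF7 and LEF1, against 19.1% and 26.2% of all genes. At TCF7 such windows held 4, 5, 3 and 5 peaks in C12, C15, S04 and S36, and 6, 5, 5 and 5 in WT10, WT13, WT28 and WT30, and the groups overlapped at 5 (difference −1, p = 0.286 in the two-sided exact permutation test, adjusted p of 1). LEF1 had its nearest KO peak 265 kb away, in S36 alone (4.55-fold), and its nearest WT peak 191 kb away, in WT10 alone (4.4-fold), on an H3K27ac peak and in the combined list. The nearest KO peak to GATA3 was 222 kb away, in S36 alone, and the nearest WT peak 8035 kb away. At ZBTB7B a region 819 kb away was called in C12 and S36 and in WT10 and WT30. SATB1 had its nearest antibody peak of either genotype 3053 kb away, BCL11A 4434 kb, IKZF1 5051 kb and TOX 8849 kb.

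Among 16 other transcription factors of the T lineage, read in the same way, 11 had an H3K27ac peak within 100 kb, against 56.8% of all protein-coding genes, with a median of 3.5 peaks against 1 over all genes. RUNX1, the core-binding factor named with NKX2-1 in the series title, had 25 peaks at up to 11.6-fold, MYB 14 at up to 14.7-fold, and ETS1 and ID3 11 each at up to 12.3-fold. RUNX3, TOX2, ID2, ZEB1 and FOXO1 had none. An antibody peak lay near 3 of the 16 in KO libraries, ETS1 (6.69-fold), IKZF3 (7.9-fold) and TOX2 (6.83-fold), all in S36 and none on an H3K27ac peak, against 5.57% of all genes in KO libraries and 5.25% in S36 itself. In WT libraries 0 of the 16 had one, against 5.48% of all genes, and in the combined list 0 of the 16, against 2.71%.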

How the data were processed

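Per the submitters' processing notes, the tools were FastQC, Bowtie2, SAMtools, MACS2 and deepTools on build hg38; no version, setting or peak-calling control is given in the sources used here. For the data, 1 peak list was deposited by the authors for each of the 9 samples, with a combined NKX2-1 antibody list and a list of WT-only regions; how the combined list was made is not given. In the deposited peak lists, the ratio (fold enrichment at the summit) and the −log10 q come from the authors' peak caller and served here for description, ranking and filtering inside 1 list at a time; the deposited WT-only list holds positions, with no measured value used here. The lists hold no counts, so depth is unknown and no interval could be given.

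Counts of peaks in RefSeq gene windows covered chromosomes 1 to 22, X and Y and were made from 1 bp of overlap, with coordinates 1-based on hg38 and gene and promoter tables from GRCh38.p14, whose chromosomes are those of hg38. Strands came from the promoter table, which has no entry for TOX. Windows were 100 kb to each side for all 9 genes, with a second window of 1 Mb for BCL11B. Nearby peaks were joined into domains at the distance usual in super-enhancer calling, which lies between the 5 kb and 20 kb tried as alternatives. The number of peaks per gene was compared between 4 KO and 4 WT libraries by a two-sided exact permutation test with Benjamini-Hochberg adjustment over all genes with a peak; the test was checked on simulated data. Gene names printed are the 9 genes, the gene nearest to each antibody site, the gene nearest to each domain in the 1 Mb window of BCL11B, the 3 genes most like the one with the largest covered length, and those of the marker and T-lineage factor lists. Neighbours of peaks that are named besides (SKP1, PPP2CA, HADH, DDC, PMVK, PBXIP1, PYGO2, SHC1 and the non-coding RNAs) were chosen after their values were seen. The 9 genes and all lists were chosen with earlier results of these data known. Alternatives covered the window, overlap by summit, peak threshold, joining distance and leaving out each library. Python 3.11.15, numpy 2.4.6, pandas 2.3.3 and matplotlib 3.10.9 were used.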

Additional observations from a re-analysis of the deposited data

Results flagged for a closer look

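In the KO libraries, S36 stood alone within 1 Mb of BCL11B, with 1 NKX2-1 antibody peak against 0 in C12, C15 and S04. In the WT libraries, WT10 stood alone there, with 1 peak against 0 in WT13, WT28 and WT30. Each was marked because 1 of 4 libraries lay far from the other 3 in its group, which a single called peak is enough to cause.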

How the results depend on the processing

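The total of 62 H3K27ac peaks in the 9 windows of 100 kb to each side stayed between 52 and 74 with windows of 50 kb or 200 kb and by summit, but came to 30 in the gene bodies alone, to 24 at a −log10 q of 5 or more and to 9 at 10 or more. The 37 peaks within 1 Mb of BCL11B came to 5 within 500 kb, since the 21 downstream and 11 upstream peaks all lie beyond it, and to 14 and 4 at those thresholds. The single peaks of GATA3 and BCL11A were lost at a −log10 q of 5 or more. Joining peaks at 5 kb or 20 kb gave 7 or 4 domains in the 1 Mb window of BCL11B in place of 5. At 5 kb the distal domain was in 2 pieces, the larger with 17 peaks, and at 20 kb it was whole. The TCF7 domain had 3 peaks over 13.2 kb at 5 kb (rank 9 by covered length) and 14 peaks over 68.9 kb at 20 kb (rank 12). The 68.9 kb domain took in the antibody site upstream of TCF7. The count of genes with an antibody peak in WT libraries, 1, came to 2 at 200 kb (LEF1 added) and to 0 in gene bodies alone. The combined-list count of 1 and the WT-only count of 1 each came to 2 at 200 kb and to 0 in gene bodies. Over all protein-coding genes, those with a peak in any antibody library numbered 3023 at 200 kb, 1807 at 100 kb and 350 in gene bodies. The counts among the 9 genes moved in the same direction as this background, so their changes say little about these genes. Shares of all genes for each list at 200 kb and in gene bodies are not given here. The 1 Mb window for BCL11B, listed as an alternative after the data were seen, gave 1 gene in place of 0 for KO and 2 for WT, combined and WT-only. Of all genes, 32.4%, 33.6%, 19.1% and 26.2% had one in windows of that size, in the same order. The count of genes that differed between KO and WT after adjustment was 0 under every alternative run. The smallest p of the exact permutation test with all 8 libraries is 0.0286, so this 0 was near certain beforehand and shows no lack of difference. The number at an unadjusted p under 0.05, 32 of 1807 genes tested, followed the number tested across windows. It was 6 of 350 in gene bodies and 190 of 9481 with 1 Mb windows, this alternative chosen after seeing the data. Leaving out 1 library gave 97 of 1805 without WT13, 52 of 1801 without C15 and 49 of 1801 without S04. The TCF7 difference of −0.5 stayed between −0.667 and −0.333 with 1 library left out, and was −0.25 at a −log10 q of 10 or more, where WT10 alone kept the site. With the 500 strongest peaks it was also −0.25. These 500 were not the highest by fold, since by fold the site ranks 446 in WT10 and 317 in WT28. In the gene body alone the difference was 0, since the site lies outside the gene. No paired analysis was possible because the clones of the 2 genotypes share no replicate numbers. The unknown depth limits every count, and the single H3K27ac library gives no replicate error.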
